A study of Mus musculus with 6 samples.

Results

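The interferon-inducible immunity GTPases examined here were 6 guanylate binding proteins (Gbp2, Gbp3, Gbp5, Gbp6, Gbp7 and Gbp9) and 4 immunity-related GTPases (Igtp, Irgm1, Irgm2 and Iigp1). They were taken as 10 named genes of the 20014 genes that the array's accessions identified. Their 13 probes, of 55681 on the array, were those whose RefSeq accession belonged to one of these genes, and every probe was kept. Guanylate binding proteins are large GTPases that assemble on the vacuoles and surfaces of intracellular microbes, help to break them open and promote inflammasome activation. Immunity-related GTPases are smaller proteins of the same defence. In mice the effector Iigp1 loads onto parasite vacuoles, and the regulators Igtp, Irgm1 and Irgm2 sit on the cell's own membranes and keep such effectors inactive there. Both families are classical targets of interferon gamma, which NK and T cells make and which acts on macrophages.

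RNA was measured in red pulp macrophages, which clear old erythrocytes, sorted from the spleen of 3 Bach2 knockout and 3 wild-type mice. All mice were C57BL/6 and 8 to 9 weeks old, the 3 knockout mice and wild-type replicates 1 and 2 were male, and wild-type replicate 3 was female. Bach2 is a transcription factor of B and T cells as well as macrophages. The labels give its loss as a knockout, with no driver that would restrict it to 1 cell type, and neither the allele nor the markers of the sort are stated. Each mouse gave 1 single-colour Agilent array. All arrays lay on 1 slide, knockout in row 2 and wild type in row 1, so that row and genotype cannot be told apart, and the 3 array columns held a knockout and a wild-type mouse apiece. The titles of replicate 3 of both genotypes share the tag P6, whose meaning is not stated.

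The 75th percentile of the signal was 1553, 1171 and 3172 units on the knockout arrays and 1734, 1693 and 865.2 on the wild-type arrays, and it was used to scale each array. Knockout replicate 3 thus had the brightest and wild-type replicate 3 the dimmest array. Levels below are on the log2 scale relative to that percentile, so that 0 is the 75th percentile of the array and 1 unit is a doubling. They compare mice within 1 probe and not 1 gene with another. The brightest spot read 542523 units on knockout replicate 3 and 611354.5 on wild-type replicate 3, whose percentiles were 3172 and 865.2. The highest level that a spot reached was thus lower on knockout replicate 3, which limits comparisons of the brightest genes. The brighter Bach2 probe read -2.42, -3.90 and -1.41 in knockout and -1.09, -0.21 and -1.53 in wild type, and knockout replicate 3 overlapped wild type. The difference was -1.63 ± 0.76 (SE) with a limma adjusted p of 1, and the other Bach2 probe was not above background on any array. The place of the probe relative to the deleted part is not given, so that it does not check the labels. All 14 marker genes of red pulp macrophages had a probe, and 13 of them were above background on all 6 arrays. The other was above background on 1 knockout array and on all 3 wild-type arrays. Markers of NK cells and of T cells were also present, and their values stand beside the results below. Replicates were separate mice.

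The promoters of these genes are shown first, because both interferon routes act on them through short DNA elements. These are the interferon-stimulated response element (ISRE), which binds interferon regulatory factors such as Irf1, and the gamma-activated site (GAS). Bach2 with a small Maf partner binds a Maf recognition element (MARE), which contains the AP-1 core. RefSeq promoter windows of assembly GRCm38.p6, 250 bases before to 50 bases after an annotated start, matched 7 of the 10 genes (Gbp2, Gbp3, Gbp5, Gbp7, Igtp, Irgm1 and Irgm2), with 8 windows. Each was searched on both strands for the ISRE core (GAAA, any 2 bases and GAAA again), the GAS core TTCNNNGAA, the AP-1 core TGANTCA and the longer MARE sequence TGANTCAGC, which begins with the AP-1 core. The whole windows of Gbp2, whose groups did not overlap, and of Irgm1 are printed because both held the AP-1 core, with ISRE and AP-1 or MARE matches in capitals.
Gbp2 (chr3:142620413-142620712, plus strand): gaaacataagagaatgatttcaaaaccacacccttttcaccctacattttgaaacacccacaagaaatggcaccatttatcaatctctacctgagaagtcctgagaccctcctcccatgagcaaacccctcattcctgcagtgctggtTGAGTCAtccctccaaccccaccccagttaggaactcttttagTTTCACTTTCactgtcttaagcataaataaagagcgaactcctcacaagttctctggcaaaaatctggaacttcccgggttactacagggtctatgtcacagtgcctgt
Irgm1 (chr11:48871371-48871670, minus strand): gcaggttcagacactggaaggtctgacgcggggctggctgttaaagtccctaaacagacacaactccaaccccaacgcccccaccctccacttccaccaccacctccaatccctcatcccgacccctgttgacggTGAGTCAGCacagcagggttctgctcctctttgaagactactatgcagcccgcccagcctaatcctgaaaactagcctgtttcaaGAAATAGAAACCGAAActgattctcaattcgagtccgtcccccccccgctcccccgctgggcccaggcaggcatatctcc
The ISRE core lay in 7 of the 8 member windows and in all 7 genes, against 3.44% of the 32851 windows in the table. The following stretches of 40 bases show it in the other genes, with the core in capitals.
Gbp3 (chr3:142559987-142560026, plus strand): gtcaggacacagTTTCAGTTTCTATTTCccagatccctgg
Gbp5 (chr3:142496754-142496793, plus strand): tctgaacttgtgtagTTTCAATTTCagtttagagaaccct
Gbp7 (chr3:142530268-142530307, plus strand): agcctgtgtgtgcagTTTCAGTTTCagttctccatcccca
Igtp (chr11:58199507-58199546, plus strand): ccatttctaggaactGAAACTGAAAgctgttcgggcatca
Irgm2 (chr11:58214898-58214937, plus strand): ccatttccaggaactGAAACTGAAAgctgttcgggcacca
In Gbp2, Gbp3, Gbp5 and Gbp7 the core ran along the gene's own strand as its reverse complement, with TTTC, and in Igtp, Irgm1 and Irgm2 as GAAA. Positions count from the annotated start of a gene's first window. The core lay between -64 and -15 in 6 genes and at -165 to -156 in Gbp5. Gbp3 and Irgm1 held 2 overlapping copies. Gbp3 had 2 windows with different starts, and its second window held none of the motifs. The windows of Igtp and Irgm2, which are neighbours on chromosome 11, shared 247 of 271 bases in their best local alignment (91.1%) and 247 of 336 columns when aligned end to end (73.5%). The GAS core was found in Gbp5, Gbp7, Igtp and Irgm2 (8.3% of all windows), the AP-1 core in Gbp2 and Irgm1 (7.81% of all windows) and the MARE sequence in Irgm1 (1.19% of all windows). A match describes the letters of the window and shows no binding.

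**Figure D1:**
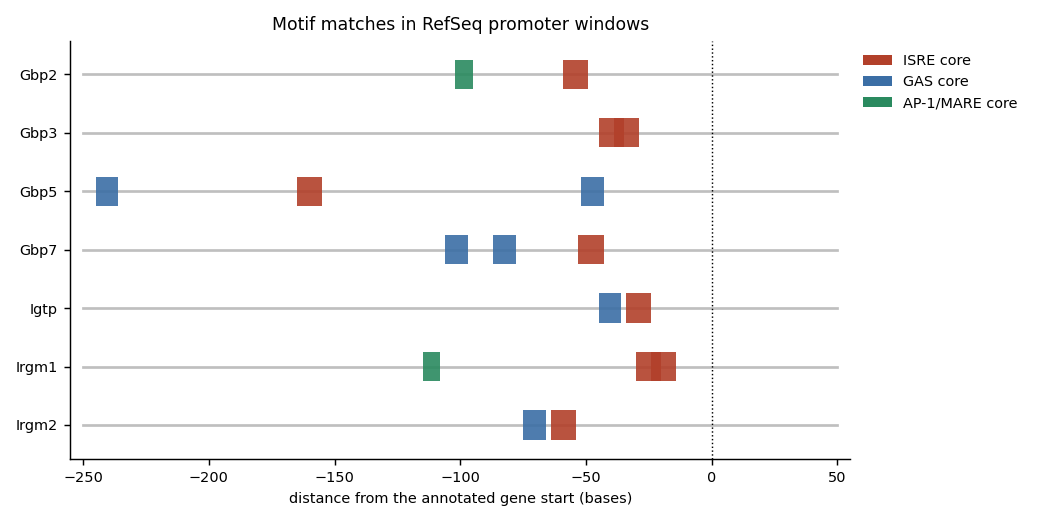
Motif matches in the first RefSeq promoter window of 7 immunity GTPase genes, by distance in bases from the annotated start of that window (dotted line). Each grey line is 1 window and each bar 1 match, and every gene carries at least 1 ISRE core, at -165 to -156 in Gbp5 and between -64 and -15 in the other 6.

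All 13 probes were well above background on all 6 arrays, so every member was measured in every mouse. No member passed the test between the genotypes, in which limma was fitted to all 55681 probes and an adjusted p under 0.05 was the threshold. The same test called 0 probes higher in knockout (0.0%) and 0 lower (0.0%), and 492 probes (0.884%) had an unadjusted p under 0.05, none of them a member. Each gene is described by its brighter probe. The log2 difference, knockout minus wild type, lay above 0 for 8 of 10 members, where 39.8% of the 9777 named genes measured on all arrays did, and the median over the members was 0.14, against -0.09 over those genes. Under 3 other scalings, 8 or 9 members and 50.8% to 56.7% of those genes lay above 0, with a median over the members of 0.24 to 0.28. The count of 8 was 6 without knockout replicate 3, wild-type replicate 1 or wild-type replicate 3, and the median was 0.015 without wild-type replicate 1, 0.05 without knockout replicate 3, 0.44 without knockout replicate 1 and 0.52 without wild-type replicate 2.

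Gbp2, a guanylate binding protein carried to membranes by a lipid anchor, was the member with the smallest p. It read 3.23, 3.64 and 4.19 in the knockout mice and 2.17, 2.81 and 2.88 in the wild-type mice. Every knockout array stood above every wild-type array, which 0.941% of the named genes measured on all arrays also showed in this direction. No member lay entirely below wild type, which 1.65% of those genes did. The mean was 3.69 ± 0.48 in knockout and 2.62 ± 0.39 in wild type (SD, n = 3 each), a log2 difference of 1.07 ± 0.63 (SE) or 2.09-fold, with a limma adjusted p of 1. The 95% interval of the difference ran from -0.31 to 2.44, and an exact permutation test (two-sided) gave p = 0.1, the lowest value that is possible with 3 mice a genotype. The difference was 1.06 in array column 1, 0.83 in column 2 and 1.31 in column 3. Knockout was the higher in all 3 columns, as it was for 2 of the 10 members and for 6.46% of those named genes.

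Gbp3, Gbp5 and Gbp7 lie beside Gbp2 in the cluster on chromosome 3 and did not share its separation. Gbp3 read 3.97, 4.30 and 4.95 in knockout and 3.66, 4.69 and 3.90 in wild type. The second-highest of these values was a wild-type one, and the difference was 0.32 ± 0.64 (SE). Gbp7, known in mice for defence against intracellular bacteria and parasites, read 0.24, 0.05 and 0.41 in knockout and 0.05, 0.89 and -0.41 in wild type. The wild-type mice spanned the knockout mice on both sides, with a difference of 0.06 ± 0.64 (SE). Gbp5, a guanylate binding protein linked to inflammasome activation, read -1.58, -0.08 and 0.17 in knockout and -0.15, -0.67 and -0.36 in wild type. Knockout replicate 1 was the lowest of the 6 and knockout replicate 3 the highest, and the difference was -0.11 ± 0.68 (SE). The limma adjusted p was 1 for all 3 genes. The sign of Gbp5 turned to 0.44 without knockout replicate 1, and that of Gbp7 to -0.24 without wild-type replicate 3.

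Gbp6 and Gbp9 belong to the cluster on chromosome 5. Gbp9 read 1.42, -0.29 and 2.94 in knockout and 0.40, 0.20 and 0.86 in wild type. Its knockout values spanned the whole range, with replicate 2 the lowest and replicate 3 the highest of the 6 arrays. The SD was 1.61 in knockout and 0.34 in wild type (n = 3 each), and the difference of 0.87 ± 0.81 (SE), 1.82-fold, had a limma adjusted p of 1. It was 0.08 without knockout replicate 3 and 1.69 without knockout replicate 2. Gbp6 had 2 probes, which did not follow each other. The brighter one read -0.85, 0.07 and -0.08 in knockout and -1.56, 0.51 and -0.29 in wild type. The other read -0.17, -1.39 and 0.43 in knockout and -0.51, -0.53 and -0.67 in wild type. After each probe was centred on its own mean they differed by up to 1.36 log2 units, on knockout replicate 2. Their differences between the genotypes were 0.16 ± 0.71 and 0.19 ± 0.67 (SE), and both probes overlapped between the genotypes. The mouse guanylate binding proteins are close relatives in sequence, and how far a probe also binds RNA of another member was not tested.

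**Figure D2:**
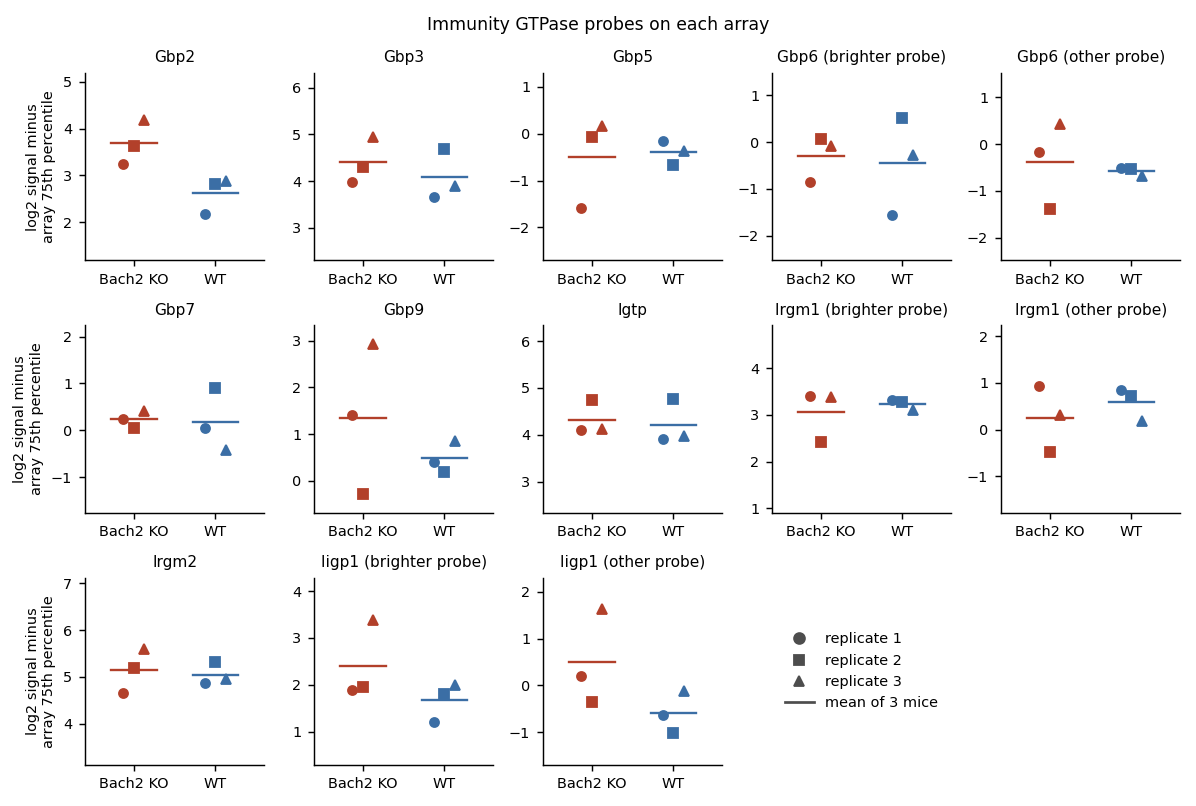
Level of each of the 13 probes on the 6 arrays, on the log2 scale with 0 at the 75th percentile of each array, with Bach2 knockout at the left and wild type at the right of each panel and lines at the mean of 3 mice. All panels span 4 log2 units, and Gbp2 is the panel in which every knockout point (3.23 to 4.19) lies above every wild-type point (2.17 to 2.88).

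Among the immunity-related GTPases, Iigp1, the vacuole-binding effector, had the largest difference, and its 2 probes pointed the same way. The brighter probe read 1.88, 1.95 and 3.38 in knockout and 1.20, 1.80 and 1.99 in wild type. Knockout replicate 3 stood apart, and the other 2 knockout mice lay among the wild-type mice. The difference was 0.74 ± 0.67 (SE), 1.67-fold, with a limma adjusted p of 1. It was 0.25 without knockout replicate 3. The other probe read 0.21, -0.36 and 1.63 in knockout and -0.64, -1.03 and -0.13 in wild type, a difference of 1.09 ± 0.70 (SE), for which the limma adjusted p was 1. On this probe knockout replicate 2 lay among the wild-type mice and the other knockout mice above them.

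For the 3 regulators the difference lay between -0.16 and 0.11, with wide intervals. Igtp, also called Irgm3, read 4.10, 4.74 and 4.13 in knockout and 3.91, 4.76 and 3.97 in wild type. Replicate 2 was the highest mouse of each genotype, and the difference was 0.11 ± 0.62 (SE) with a 95% interval of -1.26 to 1.48. Its probe was printed 10 times on each array, and the log2 SD between these spots was 0.031 to 0.049, which covers spotting and scanning but no earlier step. The SD between mice was 0.36 in knockout and 0.47 in wild type (n = 3 each). Irgm2 read 4.65, 5.18 and 5.59 in knockout and 4.87, 5.31 and 4.95 in wild type. Its knockout mice held both the lowest and the highest value, with a difference of 0.10 ± 0.62 (SE) and a 95% interval of -1.25 to 1.45. Irgm1, required in mice for resistance to mycobacteria and for the survival of blood stem cells and lymphocytes during infection, read 3.40, 2.42 and 3.38 in knockout and 3.31, 3.28 and 3.10 in wild type. Only knockout replicate 2 departed from the others, and the difference was -0.16 ± 0.62 (SE) with a 95% interval of -1.52 to 1.20. The second Irgm1 probe read 0.94, -0.48 and 0.32 in knockout and 0.85, 0.73 and 0.17 in wild type, again with knockout replicate 2 the lowest. The limma adjusted p was 1 for each of these probes, and the intervals leave room for a change of more than 2-fold in either direction.

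The differences varied between array columns and between mice. Within column 1 the difference lay above 0 for 8 of 10 members (38.5% of the named genes measured on all arrays), within column 2 for 3 (35.1%) and within column 3 for all 10 (56.5%). The median over the members within columns 1, 2 and 3 was 0.25, -0.26 and 0.73, and over the 9777 named genes it was -0.12, -0.25 and 0.11. Column 3 holds knockout replicate 3, which was the highest of the 6 arrays for 6 of 10 members and for 24.9% of those genes. It also holds wild-type replicate 3, the female mouse, so that sex and genotype are mixed in this column. Gbp2 and Iigp1 were the members higher in knockout in all 3 columns, and none was lower in all 3.

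**Figure D3:**
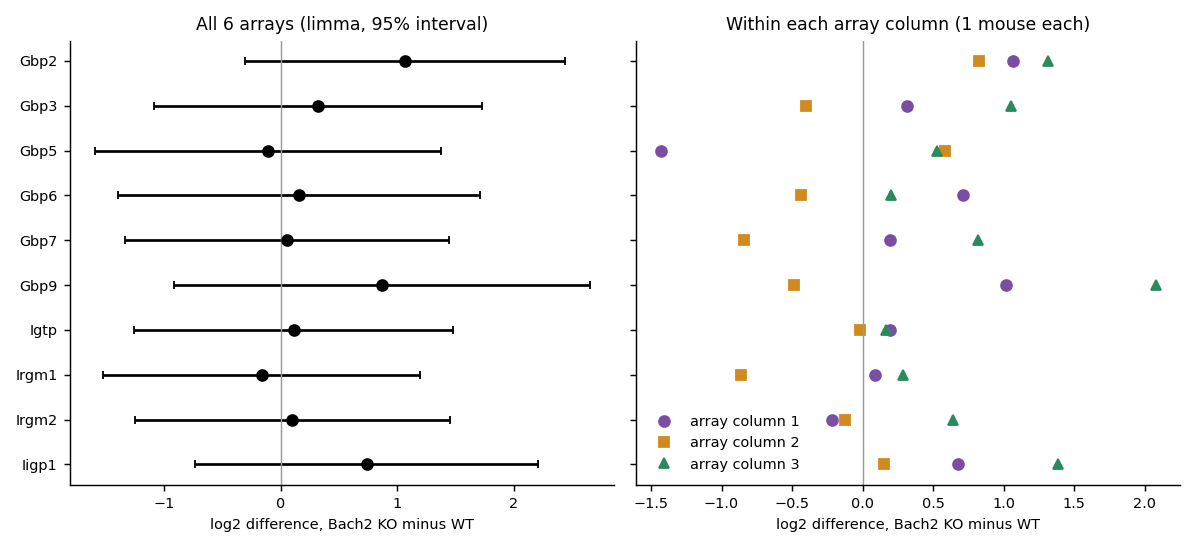
Log2 difference of each member, Bach2 knockout minus wild type, by its brighter probe. The left panel gives the limma estimate over 6 arrays with its 95% interval, each of which spans 0, and the right panel the 3 differences within an array column, of which column 3 (triangles) lies above 0 for all 10 members.

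As a group, the 10 members averaged -0.18, -0.03 and 0.68 in the knockout mice and -0.44, 0.13 and -0.17 in the wild-type mice, each gene first centred on its mean over the 6 arrays. The groups overlapped, since wild-type replicate 2 stood above knockout replicates 1 and 2. The guanylate binding proteins averaged -0.21, -0.01 and 0.81 in knockout and -0.52, 0.12 and -0.19 in wild type. The immunity-related GTPases averaged -0.13, -0.06 and 0.48 in knockout and -0.31, 0.15 and -0.14 in wild type. Both families thus had the same order of arrays apart from close values, with knockout replicate 3 the highest and wild-type replicate 1 the lowest. In bulk samples a change in the share of cells that make these RNAs and a change per cell cannot be told apart.

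Of 18 further genes of both families, 8 were above background on all 6 arrays. Their log2 differences ranged from -0.54 to 0.99, with 5 above 0, 3 below and a median of 0.18, and none passed the test. Among all named genes so measured 39.8% lay above 0, with a median of -0.09. The genes of this list with the smallest p were dimmer ones, above background on more knockout than wild-type arrays, so that a filter on signal favours their direction and they are left out of the count. Gbp2b, the mouse gene formerly called Gbp1, stood at -1.15 ± 0.55 in knockout and -2.71 ± 1.59 in wild type (SD, n = 3 each), with a difference of 1.55 ± 0.82 (SE), and only 1 of 3 wild-type arrays had it above background. Gm5431 stood at -1.92 ± 0.20 in knockout and -3.04 ± 0.69 in wild type (SD, n = 3 each), and again only 1 wild-type array had it above background. Tgtp1 gave 1.09 ± 0.67 and 9930111J21Rik2 gave 1.23 ± 0.83 (SE), each above background on 2 knockout arrays and 1 wild-type array. Gvin1, a very large interferon-inducible GTPase, was the only gene of its list of 8 with a named probe here. Its brighter probe stood at 4.26 ± 0.76 in knockout and 3.47 ± 0.26 in wild type (SD, n = 3 each), a difference of 0.80 ± 0.65 (SE). On that probe the knockout mice read 3.68, 3.98 and 5.13, with replicate 3 the highest, and the difference on the other probe was 0.24.

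Of 15 ligand and receptor genes of the pathway 8 were above background on all 6 arrays, of which 2 lay above 0 and 6 below. The share above 0 was 39.8% over all named genes so measured. Ifng, which encodes interferon gamma itself, read 1.13, 2.01 and 2.12 in the knockout mice and 0.35, 0.50 and -1.01 in the wild-type mice. Knockout and wild type did not overlap (0.941% of the named genes measured on all arrays, in this direction), and the difference was 1.81 ± 0.68 (SE), 3.50-fold, with a limma adjusted p of 1. Ifngr1, the ligand-binding receptor chain, read 5.27, 4.87 and 5.83 in knockout and 5.30, 6.64 and 5.90 in wild type, a difference of -0.63 ± 0.65 (SE). The receptors Il18r1 and Il12rb1, through which cytokines induce Ifng in lymphocytes, differed by 1.82 ± 0.69 and 1.05 ± 0.85 (SE), but Il18r1 was above background on only 2 knockout arrays and 1 wild-type array.

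Genes for the signalling steps and for other interferon targets lay on both sides of 0. Over all named genes measured on all arrays, 39.8% lay above 0 and the median was -0.09. Of 17 signalling and transcription factor genes above background on all arrays 9 lay above 0 and 8 below, with a median of 0.014. Nlrc5, the activator of MHC class I genes, gave 0.71 ± 0.70, Tyk2, not above background on every array, -0.43 ± 0.67 and Irf3 -0.36 ± 0.61 (SE). Of 9 inhibitor genes so measured 5 lay above 0, with Socs1 at 0.74 ± 0.68 and Cish at 1.03 ± 1.12 (SE), and with Usp18 at -0.56 ± 0.63 and Ptpn2 at 0.30 ± 0.64 (SE). None of these genes passed the test.

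Of 20 likewise measured interferon gamma targets outside the GTPases, 6 lay above 0 and 14 below, with a median of -0.15. For this list and the 2 below, the values over all named genes so measured were 39.8% above 0 and a median of -0.09. The chemokine genes Cxcl9 and Cxcl10 gave 1.07 ± 0.66 and 0.56 ± 0.70, the nitric oxide synthase gene Nos2 -0.69 ± 0.75 and B2m, the light chain of MHC class I, -0.54 ± 0.66 (SE). The mean difference of the list within array columns 1, 2 and 3 was 0.20, -0.08 and -0.43. For B2m, a bright gene, it was 0.32, -0.07 and -1.85. The part of the lower top level on knockout replicate 3, which is in column 3, was not tested. Of 27 type I interferon targets 16 lay above 0 and 11 below, with a median of 0.03. Ifit2, which is not among these 27 because of its lower signal, stood at 1.08 ± 0.92, Ifit1 at 0.64 ± 0.73, Zbp1 at 0.55 ± 0.67 and Ifi27l2a at -0.71 ± 0.65 (SE). Of 20 genes for the partners of these GTPases in vacuole attack, protein conjugation and the inflammasome, 6 lay above 0 and 14 below, with a median of -0.13. In that list the conjugation targets Gabarapl1 and Gabarap gave -0.45 ± 0.61 and -0.39 ± 0.62 (SE), the DNA sensor gene Aim2 -0.41 ± 0.65 and the caspase gene Casp4 0.40 ± 0.67 (SE). No gene of these 3 lists passed the test.

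**Figure D4:**
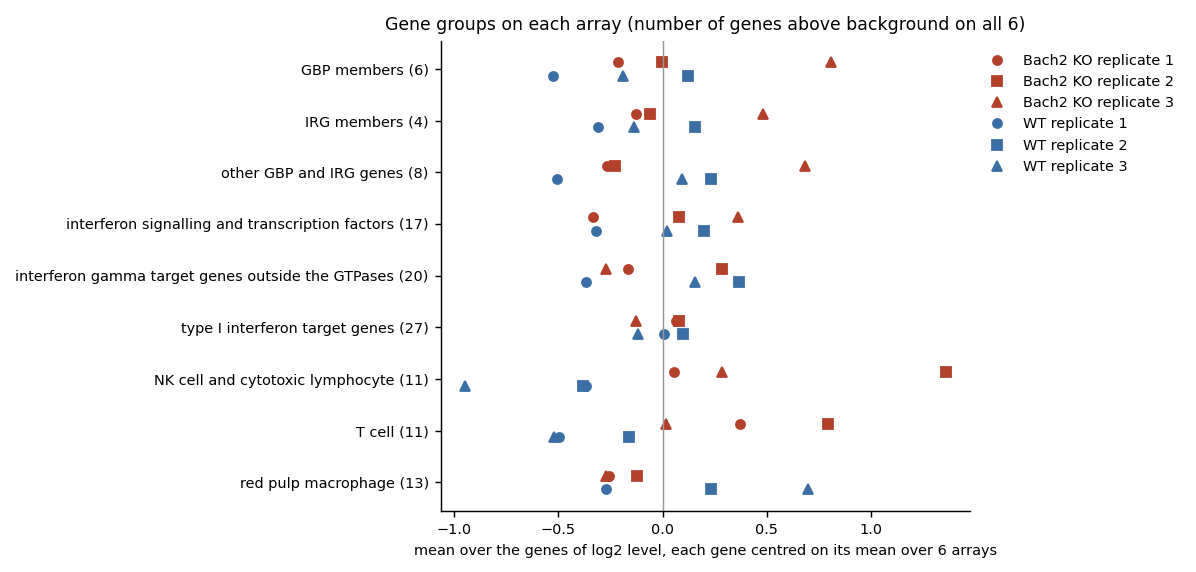
Mean log2 level of each gene group on each of the 6 arrays, every gene centred on its mean over the arrays, with knockout points drawn above wild-type points and the number of genes above background on all arrays in brackets. The guanylate binding proteins and immunity-related GTPases overlap between the genotypes, with knockout replicate 3 highest at 0.81 and 0.48, while for the NK cell and T cell markers every knockout array lies above every wild-type array.

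The arrays also differed in markers of other cells. Of 12 NK and cytotoxic cell markers 11 were above background on all 6 arrays. All 11 lay above 0 and 5 were without overlap higher in knockout, against 39.8% and 0.941% of all named genes so measured. Their summed level, in units of the array's 75th percentile, was 128, 442 and 156 in knockout and 85.0, 105.2 and 73.6 in wild type. Of 14 T cell markers 11 were so measured, 10 of them above 0 and 3 without overlap. Their summed level was 54.0, 95.5 and 38.3 in knockout and 31.4, 53.7 and 31.9 in wild type, which overlapped. Cd247, a signalling chain of the T cell receptor, was the only 1 of the 14 that was not above background on any array. Knockout replicate 2 had the highest levels of both lists. The immunity GTPases were highest on knockout replicate 3, as were 24.9% of the named genes measured on all arrays. Of 6 neutrophil markers on this footing 5 lay above 0 (median 1.10), of 6 erythroid markers 5 (median 0.60), of 6 monocyte markers 4 (median 0.36), of 6 plasma cell markers 4 (median 0.21), of 6 B cell markers 3 (median 0.03) and of 6 dendritic cell markers 2 (median -0.13). Of 14 red pulp macrophage markers 13 were so measured and all 13 lay below 0, with a median of -0.41, and 1 of them was without overlap lower in knockout (1.65% of named genes). They summed to 1288, 1486 and 1088 in knockout and 1282, 1761 and 2527 in wild type, with wild-type replicate 3 the highest. Their mean difference within array columns 1, 2 and 3 was 0.01, -0.35 and -0.97. The mean level of these genes in knockout ran from 3.6 to 7.6, so that not all of them were bright. The part of the lower top level on knockout replicate 3 in their differences was not tested. None of the marker genes passed the test, and the part of these cells in the values of the immunity GTPases was not tested.

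The genes whose profile over the 6 arrays was most like the mean profile of the members were sought among 9345 other named genes above background on all arrays. The measure was the root mean square difference of centred log2 levels, for which the median gene gave 0.53 and the members themselves gave 0.17 to 0.86. The closest were Agpat5 (0.074), Zfp598 (0.082), Rab3gap2 (0.083), Csrnp1 (0.086), Rnf135 (0.088) and Mbnl1 (0.093). Their own log2 differences ran from 0.25 to 0.39, none past the threshold. With 6 arrays and so many genes, a close match describes these arrays and nothing further.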

How the data were processed

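RNA of sorted red pulp macrophages was measured on 6 single-colour Agilent arrays. Per the labels' protocols, RNA was amplified and labelled with a cyanine dye. The deposited scanner files hold intensity values written by Agilent Feature Extraction, whose version is 10.7.3.1 per the file headers and 9.1 per the submitters' processing notes. Per the file headers, background subtraction and spatial detrending within an array came before the processed intensity. The authors' deposited table of log2 values holds 279 probes, 0 of them a member, and was not used further.

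Control spots and outlier spots (141 to 283 per array) were left out, log2 values of a probe's spots were averaged and the 75th percentile of each array was subtracted. No spot was flagged as saturated. Accessions were named through a RefSeq table of GRCm38, 26407 probes in all. The array design refers to mm9, so gene coordinates of that table are not given. Genotypes were compared with limma 3.58.1 in R 4.3.3 (lmFit, eBayes) over all 55681 probes with Benjamini-Hochberg adjustment. The fit was run on simulated arrays with independent noise in each probe. How often it would find a true change in the real arrays is not given here. Replicates are separate mice, numbered in the order of the records. The limma SE, interval and p combine a probe's own spread between mice with a spread estimated over all 55681 probes. They are therefore not a measure of 1 gene's spread alone. For Gbp2, whose SD was 0.48 in knockout and 0.39 in wild type, the SE was 0.63. Arrays, only 3 per genotype, limit the precision. The members and gene lists were chosen with earlier results of these data known. Named genes were the members, Bach2, up to 4 genes of each list with the smallest p, among those above background on at least 3 arrays, and the 6 genes most like the members. A gene that this rule names is not reported here. Normexp was run on median signals, because the files hold no mean signal, and with the count of members above 0 it was added after the data were seen.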

Additional observations from a re-analysis of the deposited data

How the results depend on the processing

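Under the 17 alternatives no member passed the threshold, and the lowest limma adjusted p of any member was 0.353 (Gbp2). Over all probes, 0 were called in the reported fit (492 at an unadjusted p under 0.05), 3 with normexp on median signals (1 higher, 2 lower), 1 with array quality weights and 19 with an intensity trend and robust variance (14 higher, 5 lower). Leaving out 1 mouse gave 0 called probes each time. The median over the members was 0.14, from 0.015 without wild-type replicate 1 to 0.52 without wild-type replicate 2 when 1 mouse was left out, 0.02 without both mice tagged P6 and at most 0.40 under the other settings. Members above 0 numbered 8, from 6 to 9 when 1 mouse was left out, and 5 without both P6 mice. Of 170 member values 17 had the opposite sign to the reported one. The 170 include settings that could not change a member's difference. These were the background filter, the brightest probe per gene, the array column block and the trend with robust variance. Without both P6 mice Gbp3 was -0.044, Gbp7 -0.32 and Irgm2 -0.17. Gbp5 was 0.035 with arrays centred on the median, and Irgm2 was -0.012 with array weights. Array weights also gave the lowest value of Gbp5, -0.77, and the highest of Gbp6, 0.88. With 1 mouse left out, Gbp5 ranged from -0.44 to 0.44, Gbp6 from -0.40 to 0.64, Gbp7 from -0.24 to 0.42, Igtp from -0.10 to 0.39, Irgm1 from -0.33 to 0.16 and Irgm2 from -0.12 to 0.34. Gbp2 (0.81 to 1.29), Gbp9 (0.08 to 1.69) and Iigp1 (0.25 at the lowest) kept their sign in all 17. The cause of these shifts was not tested. Centring on the median, in place of the 75th percentile, moved the median of the 9777 named genes to 0.05, against -0.09, and their share above 0 to 56.7%, against 39.8%, with the members' median at 0.28. No paired analysis was possible because P6 was the only tag in the labels that mice of both genotypes shared. The array column, a position on the slide, was fitted as a block instead. As each column holds 1 mouse of a genotype, that fit cannot move a difference, only its p, and it called 0 probes. Gene lists were counted over genes above background on all 6 arrays, a rule chosen after the data were seen. With at least 3 arrays in its place, 10 of 14 further genes of both families lay above 0, with a median of 0.52. So did 4815 of all 11733 named genes under that rule, with a median of -0.08. The planned normexp on mean signals was not run. All 13 member probes were above background on all arrays.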
